A study of Mus musculus with 117 samples.

Results

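Spinal cord 14 days after crush injury was compared with uninjured spinal cord by RNA sequencing of the flow-through, which is the RNA that stayed in solution after tagged astrocyte ribosomes had been pulled out of a tissue homogenate. The libraries were chosen by their titles alone, 4 flow-through libraries at 14 days and 4 from uninjured cord, which makes 8 of the 117 libraries of the series. All 8 came from mice labelled female with the genotype Aldh1l1-CreERT2 -RiboTag, and the uninjured mice carried both alleles too. In these mice a tamoxifen-dependent Cre, driven by regulatory sequence of the astrocyte gene Aldh1l1, adds a haemagglutinin tag to a ribosomal protein. The mice were young adults, the injury was a complete crush of the thoracic cord, and the tissue was a block around the centre of the lesion, so that lesion core and border tissue were sequenced together. The study used the flow-through to describe local cells other than astrocytes and to judge the purity of its astrocyte libraries. Astrocyte RNA that escaped the antibody also remained in it.

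The other groups used here were flow-through libraries of the same genotype and labelled sex at 5 days (4 libraries) and 28 days (4), males of the same genotype at 14 days (4), and mGfap-Cre-RiboTag mice, in which another astrocyte promoter drives a Cre that needs no tamoxifen, uninjured at postnatal day 63 (5) and 14 days after the same injury (5). Of the uninjured mGfap mice 3 were labelled male and 2 female, and the 5 injured ones female. Of the 4 libraries at 5 days 1 has a male label although its title does not call it male, and its group was taken from the title. The astrocyte libraries of the 8 mice themselves, called RiboTag libraries here, served for a last comparison.

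A crush injury destroys neurons and axons at its centre, and blood-borne and resident phagocytes clear the debris over the following weeks. In the mouse cord, the end of the second week is the time at which a core of fibroblast-lineage cells and macrophages is walled off by newly formed astrocyte borders, while oligodendrocyte progenitors divide and rebuild myelin around it. Macrophages that have taken up myelin must store or export its cholesterol, and are known for a characteristic set of lipid-handling and lysosomal genes.

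Total counts on genes were 99521160 to 115137979 in the uninjured and 103379578 to 136008399 in the 14-day libraries. Correlations between libraries of 1 group, across log2 levels, were 0.988 to 0.995 in uninjured mice and 0.987 to 0.992 at 14 days. By this measure no library of the 8 stood apart. The labelled tissue fitted its markers: motor neuron transcripts such as Chat, at 15.3 ± 2.91 CPM (counts scaled to a common normalised library size, mean ± SD, n = 4), and myelin transcripts such as Mbp, at 18303 ± 1597 CPM, were present in uninjured flow-through. Aldh1l1 was at 15.04 ± 1.496 CPM in uninjured flow-through and 446 ± 46.3 CPM in the RiboTag libraries of the same mice. These levels, each scaled within its own fit, show enrichment in the RiboTag libraries. The series holds no library of the whole homogenate, so depletion of astrocyte RNA from the flow-through was not tested. Uninjured library 1 was the highest of its group for some muscle, neutrophil and globin genes. In it Acta1 was at 36.65 CPM against 10.27 to 12.24 CPM in the others, and S100a8 at 17.06 against 2.379 to 6.474 CPM. Hba-a2 was at 16.17 against 3.78 to 6.538 CPM. At 14 days genes with short transcripts were shifted up and genes with long ones down, with median log2 deviations of 0.28 to 0.38 in the shortest sixth and -0.23 to -0.16 in the longest sixth of the expressed genes. The part of transcript length in the changes below was not tested.

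Injury changed the flow-through on a broad scale. Of 19207 genes tested, 8469 passed a Benjamini-Hochberg false discovery rate of 0.01 in edgeR's quasi-likelihood test, which is 44.1% of them, and 11107 had an unadjusted p under 0.05. At 14 days 4730 genes (24.6%) were higher, here called risen, and 3739 (19.5%) were lower, here called fallen. These shares of all genes are the background for each list count of this comparison below. Large changes were mostly increases: 1636 genes rose and 684 fell by at least 4-fold, and 326 rose and 15 fell by at least 16-fold. Passing the threshold already selects genes whose 4 injured libraries are separated from the 4 uninjured ones. A lack of overlap given below for genes past the threshold is therefore a description and no support of its own. The share without overlap among all genes tested is not given. The median log2 fold change of all genes was 0.029, and another scaling of library sizes (RLE) moved it to -0.083 and gave 4235 risen against 4378 fallen genes. In RNA from whole tissue, fewer cells of a type and less RNA in each of its cells cannot be told apart.

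Among genes past the threshold whose groups did not overlap and whose higher group had a mean of at least 5 CPM, those with the steepest increases included genes of macrophages and of tissue remodelling. Apoc4, an apolipoprotein next to Apoe, was at 0.0359, 0.0470, 0.0645 and 0.0182 CPM in the uninjured and at 50.2, 43.96, 53.8 and 48.7 CPM in the injured libraries. The groups were far apart, with a log2 fold change of 10.16 ± 0.46 (SE, edgeR adjusted p = 3.1e-16). Cst7, the protease inhibitor cystatin F of phagocytes, went from 0.409 ± 0.0867 to 166 ± 15.4 CPM, a log2 fold change of 8.66 ± 0.29 (edgeR adjusted p = 2.0e-18). The other 8 of the 10 steepest increases had log2 fold changes between 8.02 and 8.65. They were Sprr1a, a cornified-envelope protein that injured neurons induce, the metalloproteinases Mmp12 and Mmp3, Cd5l, a scavenger protein of macrophages, the serotonin receptor Htr2b, the lysosomal glycoprotein Gpnmb, the acute-phase protein Saa3 and the proton pump subunit Atp6v0d2. Cd5l went from 0.117 ± 0.0495 to 44.9 ± 6.83 CPM and Atp6v0d2 from 0.222 ± 0.1296 to 57.2 ± 6.82 CPM. Htr2b reached 15.2 ± 2.40 CPM from 0.0410 ± 0.0385 CPM, and Saa3 81.0 ± 56.5 CPM from 0.266 ± 0.251 CPM. Saa3 had the widest spread among the injured libraries of these 4. Groups without overlap were a condition for the 10 steepest increases and the 10 steepest decreases. Their lack of overlap, here and below, is therefore no finding of its own.

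The steepest decreases by the same rule included many genes of neurons. Slc17a7, the vesicular glutamate transporter of many projection neurons and sensory afferents, was at 19.4, 20.8, 36.3 and 23.7 CPM in uninjured and at 1.46, 1.26, 2.07 and 1.02 CPM in injured cord. It had the largest fitted fall, with a log2 fold change of -4.11 ± 0.84 (edgeR adjusted p = 1.4e-04). The calcium sensor of fast synapses Syt2 fell from 93.2 ± 29.5 to 6.80 ± 0.860 CPM, and the active-zone protein Rims1 from 18.5 ± 6.25 to 1.38 ± 0.441 CPM. The sodium channel Scn1a fell from 104 ± 14.1 to 10.01 ± 2.32 CPM, the potassium channel Kcnj3 from 9.09 ± 1.94 to 0.707 ± 0.658 CPM and the calcium pump Atp2b3 from 34.1 ± 10.2 to 3.39 ± 0.782 CPM. Slc6a5, described with the inhibitory neurons below, was also among the 10, together with Smim17 (16.1 to 1.20 CPM), Gm19461 (7.95 to 0.825 CPM) and Pcdhac2 (6.35 to 0.565 CPM). Pcdhac2 shares its last exons with other protocadherins of its cluster, so that its level is uncertain.

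**Figure D1:**
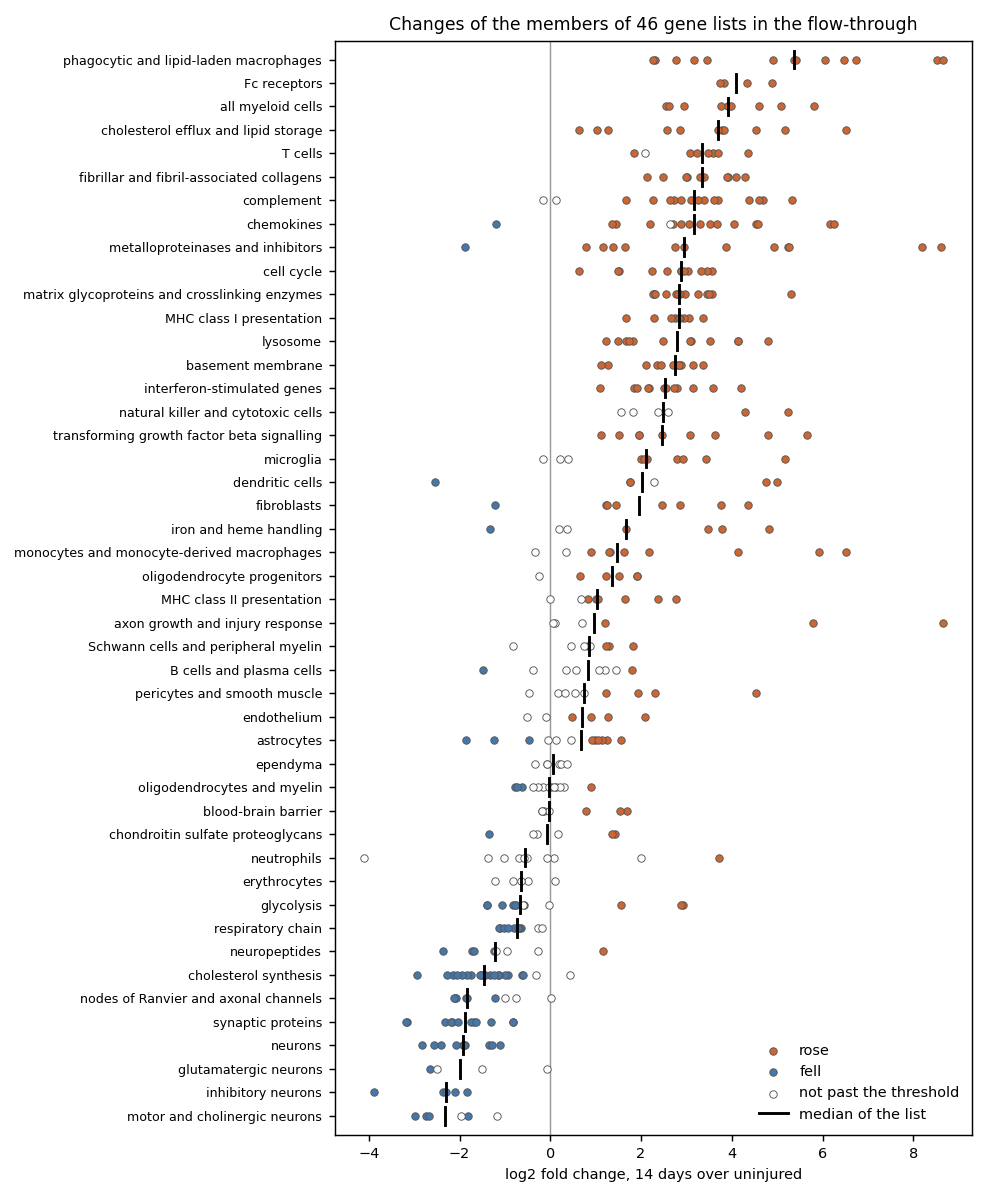
Each point is 1 gene of 46 lists of cell type markers and processes, placed at its log2 fold change in the flow-through, 14 days over uninjured (x axis), with orange for risen, blue for fallen and white for genes not past the threshold, and a black bar for the median of the list. Lists of phagocytes, complement, collagens and the cell cycle lie to the right of 0, with medians of 5.38, 3.18, 3.35 and 2.89, and lists of neurons and synaptic proteins to the left, with medians of -1.92 and -1.89.

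Neuronal transcripts were lower in every injured library. All 10 neuron markers fell, with a median log2 fold change of -1.92, and their summed level was 11883 to 13443 CPM in the uninjured and 2593 to 3613 CPM in the injured libraries. Snap25, a protein of the vesicle fusion machinery at presynaptic terminals, was at 3099, 3184, 3107 and 3490 CPM in uninjured and 555, 416, 484 and 355 CPM in injured cord. Every injured library lay far below every uninjured one, with a log2 fold change of -2.83 ± 0.36 (edgeR adjusted p = 1.4e-07). Rbfox3, the nuclear protein NeuN of most mature neurons, was at 199.7, 202, 233 and 232 and then at 53.4, 41.5, 36.3 and 30.9 CPM. It fell by 5.34-fold, again without overlap (log2 fold change -2.42 ± 0.23, edgeR adjusted p = 7.1e-10). The smallest falls of the list were those of Uchl1 (-1.11), Tubb3 (-1.28) and Stmn2 (-1.34), genes of the neuronal cytoskeleton and protein turnover, and the neurofilament gene Nefl fell by 2.57 on the log2 scale.

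All inhibitory and most motor neuron genes of the lists fell. Of the 5 inhibitory neuron genes 5 fell (median -2.30), of the 6 motor and cholinergic genes 4 (median -2.33) and of the 4 glutamatergic genes 1 (median -2), where 19.5% of all genes fell. The glutamatergic count was 3 with the 2 groups alone or without the libraries at 2 days. Slc6a5, the glycine transporter that marks glycinergic interneurons of the cord, was at 15.1, 36.1, 36.2 and 26.6 CPM in uninjured and at 1.45, 3.09, 1.16 and 2.03 CPM in injured mice. The groups were apart by a log2 fold change of -3.88 ± 0.57 (edgeR adjusted p = 1.4e-06). The enzymes of GABA synthesis fell too, Gad1 from 126 ± 2.55 to 29.2 ± 7.49 CPM (-2.11 ± 0.28) and Gad2 from 66.8 ± 3.94 to 18.7 ± 4.49 CPM (-1.84 ± 0.24). Chat, which makes acetylcholine in motor neurons, fell from 15.3 ± 2.91 to 2.27 ± 0.439 CPM (log2 fold change -2.75 ± 0.36, edgeR adjusted p = 1.9e-07), and the vesicular transporter Slc18a3, whose gene lies within that of Chat so that its level is uncertain, from 83.3 ± 3.20 to 23.6 ± 10.1 CPM. Slc17a6, the vesicular transporter of most glutamatergic neurons of the cord, fell from 114 ± 7.69 to 17.99 ± 5.08 CPM, while Slc17a8 was at 0.881 ± 0.344 and 0.839 ± 0.241 CPM and did not pass the threshold (edgeR adjusted p = 0.93). Isl1 and Prph of the motor list and Lmx1b and Tlx3 of the glutamatergic list also missed it, with log2 fold changes of -1.97, -1.18, -2.49 and -1.51.

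Genes of synapses and of the axonal membrane followed. All 12 synaptic genes fell, from -0.82 for Stx1a and Vamp2 to -3.19 for the glycine receptor subunit Glra1 (median -1.89). Syn1, which tethers synaptic vesicles, fell from 608 ± 48.6 to 190.1 ± 25.2 CPM (log2 fold change -1.68 ± 0.22, edgeR adjusted p = 1.9e-07), and the vesicle protein Vamp2 from 649 ± 69.6 to 368 ± 35.3 CPM (-0.82 ± 0.15). Of the 9 genes of nodes of Ranvier and axonal channels 6 fell (median -1.85), among them the nodal sodium channel Scn8a (338 to 79.1 CPM, -2.10 ± 0.29) and the juxtaparanodal potassium channel Kcna2 (418 to 115 CPM, -1.86 ± 0.25). Nfasc, whose protein is made by neurons at the node and by oligodendrocytes at the paranode, overlapped between the groups, at 408 ± 43.04 and 413.3 ± 25.6 CPM (edgeR adjusted p = 0.92). Ank3 and Kcnq3 did not pass either (-0.76 and -0.99).

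Neuropeptide and growth genes moved in both directions or did not pass the threshold. Of the 8 neuropeptide genes 4 fell and 1 rose, beside 19.5% and 24.6% of all genes. The largest fall was that of Cck (68.1 to 13.2 CPM, -2.37 ± 0.44). The risen gene was Npy, from 33.1 ± 5.51 to 73.6 ± 7.63 CPM (1.15 ± 0.17, edgeR adjusted p = 1.5e-06). Tac1, the precursor of substance P, was at 41.1, 30.4, 27.5 and 29.9 CPM and then at 18.8, 11.5, 16.2 and 8.11 CPM. It fell with an adjusted p of 0.0095 in edgeR, close to the threshold, and the call was lost without 7 of the 8 libraries, 1 at a time. Penk, the enkephalin precursor, was at 317 ± 42.04 and 260.4 ± 62.99 CPM and overlapped between the groups. Of the 6 axon growth and injury response genes 3 rose: Sprr1a, at 0.548, 0.604, 0.277 and 0.501 CPM in uninjured and 190.3, 224, 193.3 and 172 CPM in injured libraries, Atf3, a transcription factor of injured neurons and of many stressed cells, from 1.31 ± 0.346 to 72.9 ± 9.13 CPM (5.79 ± 0.24, edgeR adjusted p = 4.3e-17), and Jun (1.21 ± 0.15). Every injured library exceeded every uninjured one for these 3, while Gap43, a growth-cone protein that healthy cord neurons also express, was at 258.2 ± 23.3 and 278 ± 22.1 CPM and did not pass (edgeR adjusted p = 0.66).

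**Figure D2:**
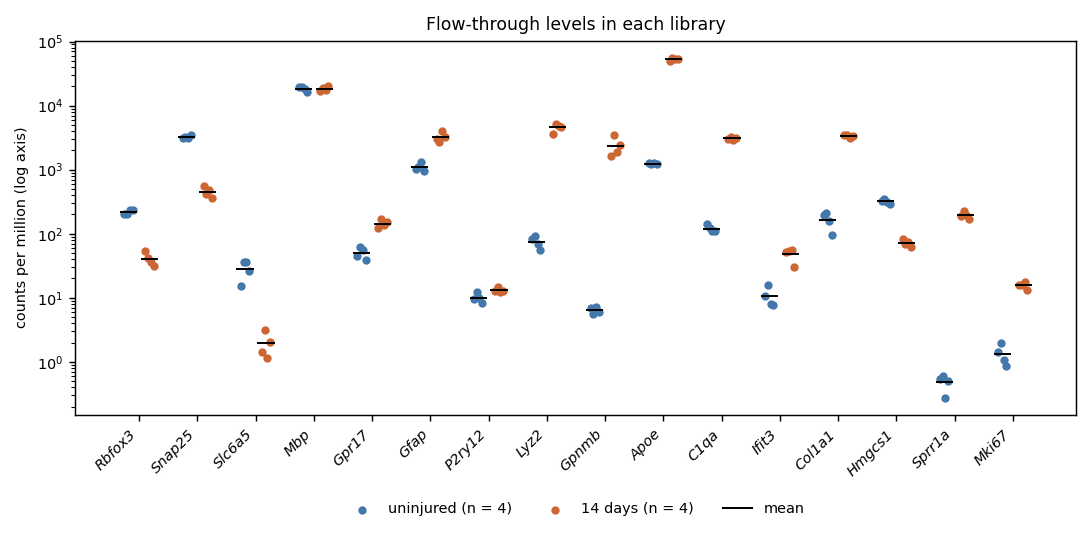
Level of 16 genes in each of the 4 uninjured (blue) and 4 injured libraries (orange), in CPM on a log axis, with a line at the mean of each group. Neuron genes such as Snap25 lie lower and macrophage genes such as Gpnmb and Lyz2 higher in every injured library, while the uninjured and injured libraries of Mbp overlap.

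Most myelin genes did not pass the threshold, and most genes of oligodendrocyte progenitors were higher. Of the 13 oligodendrocyte and myelin genes 9 did not pass the threshold, 1 rose and 3 fell, with a median log2 fold change of -0.024 beside 0.029 for all genes. Mbp, a main protein of myelin, was at 19861, 19213, 17889 and 16248 CPM in uninjured and 16703, 19062, 17825 and 20036 CPM in injured libraries. The groups overlapped (log2 fold change 0.01 ± 0.17, edgeR adjusted p = 0.97). The fallen genes were Ermn (-0.78 ± 0.14), Ugt8a, which makes the myelin lipid galactosylceramide (-0.75 ± 0.19), and Mobp (-0.63 ± 0.17), and the risen gene was the tight junction protein Cldn11 (0.89 ± 0.10, edgeR adjusted p = 2.0e-08).

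Of the 6 progenitor genes 5 rose (median 1.37), where 24.6% of all genes did. Gpr17, a receptor of progenitors on their way to becoming oligodendrocytes, was at 45.2, 62.5, 54.9 and 38.98 CPM in uninjured and 121, 167, 138 and 150.1 CPM in injured cord, with no overlap (log2 fold change 1.51 ± 0.32, edgeR adjusted p = 1.8e-04). C1ql1, a secreted protein of progenitors, rose from 45.2 ± 6.09 to 169 ± 23.7 CPM (1.90 ± 0.19, edgeR adjusted p = 1.5e-09). Cspg4, the proteoglycan NG2, rose by 1.91 and Pdgfra, the growth factor receptor of progenitors, by 1.22 on the log2 scale. Pericytes also make Cspg4 and fibroblasts also make Pdgfra, and 4 of 9 genes of pericytes and smooth muscle and 7 of 8 fibroblast genes, Pdgfra included, rose. Their part in these increases was not tested. Neu4 rose by 0.65 (edgeR adjusted p = 0.0026), and Lhfpl3 did not pass (-0.25, edgeR adjusted p = 0.36).

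Of the 8 genes of Schwann cells and peripheral myelin 4 rose, where 24.6% of all genes did. They were Pmp22, Pmp2, Egr2 and Foxd3 (median of the list 0.85). Prx, which peripheral myelin needs for its stability, was at 52.1 ± 13.98 and 71.9 ± 29.1 CPM and did not pass.

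Astrocyte genes in the flow-through moved in both directions. Of 12 markers 6 rose and 3 fell (median 0.68), beside 24.6% and 19.5% of all genes. Gfap, the intermediate filament of reactive astrocytes, was at 1013, 1108, 1310 and 962 CPM in uninjured and 2963, 2721, 4001 and 3215 CPM in injured libraries. All injured libraries were the higher ones (log2 fold change 1.55 ± 0.26, edgeR adjusted p = 1.2e-05). Aldh1l1 itself rose from 15.04 ± 1.496 to 29.8 ± 4.54 CPM (0.99 ± 0.20), and the endfoot water channel Aqp4 from 66.7 ± 10.96 to 158 ± 21.1 CPM (1.24 ± 0.27). Those that fell were the D-serine transporter Slc7a10 (-1.86 ± 0.32), the glycolytic enzyme Aldoc (-1.25 ± 0.24) and Fgfr3 (-0.47 ± 0.14). In the RiboTag libraries of these mice Aldh1l1 was at 446 ± 46.3 and then at 244 ± 27.4 CPM, and the 2 changes differed by -1.76 ± 0.16 on the log2 scale (edgeR adjusted p = 5.5e-08). Of the 6 genes of ependyma, the ciliated lining of the central canal, none passed the threshold. Foxj1, the master factor of motile cilia, was at 56.9 ± 3.54 and 53.7 ± 4.83 CPM and Tmem212 at 2.52 ± 0.193 and 1.98 ± 0.265 CPM, with overlap between the groups.

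Vessel genes rose in part, and most fibroblast genes rose. Of 6 endothelial genes 4 rose (median 0.69), where 24.6% of all genes did. Pecam1, an adhesion molecule of endothelial junctions, rose from 25.7 ± 1.91 to 35.97 ± 1.83 CPM (0.49 ± 0.10, edgeR adjusted p = 2.3e-04). Cdh5, the cadherin of these junctions, rose from 10.7 ± 3.77 to 45.2 ± 9.60 CPM (2.08 ± 0.47), and the others were Tie1 and Emcn. Of 7 blood-brain barrier genes 3 rose, beside the same 24.6% of all genes. They were the tight junction protein Cldn5 (67.7 to 117 CPM, 0.78 ± 0.15), the efflux pump Abcb1a (1.68 ± 0.17) and Itm2a (1.54 ± 0.21). The lipid transporter Mfsd2a, at 21.1 ± 2.27 and 19.1 ± 2.38 CPM, and the glucose transporter Slc2a1 (-0.19) did not pass. Of 9 genes of pericytes and smooth muscle 4 rose. Pdgfrb, the receptor by which pericytes are recruited and which scar-forming fibroblasts also carry, was at 28.4, 35.6, 26.6 and 20.8 CPM in uninjured and 128, 141, 140.1 and 140.0 CPM in injured cord, with no overlap (log2 fold change 2.30 ± 0.13, edgeR adjusted p = 3.1e-14). The pericyte genes Rgs5, at 6.06 ± 2.45 and 6.80 ± 0.594 CPM, Kcnj8 and Abcc9 did not pass (log2 fold changes 0.17, 0.73 and -0.47).

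Of 8 fibroblast genes 7 rose and 1, Slit3, fell (median 1.95), and the summed level of the list went from 308.7 to 637.7 CPM in uninjured libraries to 5211 to 5880 CPM in injured ones. Col1a1, the larger chain of type I collagen, was at 197, 208, 159 and 96.3 CPM in uninjured and 3477, 3516, 3171 and 3324 CPM in injured libraries. The increase was 20.4-fold, with no overlap (log2 fold change 4.35 ± 0.41, edgeR adjusted p = 5.0e-10). Lum, a small proteoglycan that spaces collagen fibrils, rose from 8.94 ± 2.96 to 64.9 ± 11.9 CPM (2.86 ± 0.32, edgeR adjusted p = 1.5e-08). Dpt and Pi16, markers of fibroblasts of the outer vessel wall and meninges, rose by 1.44 and 1.26.

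Genes of the extracellular matrix rose as whole lists. All 10 fibrillar and fibril-associated collagens rose (median 3.35), as did all 15 matrix glycoproteins and crosslinking enzymes (2.85) and all 12 basement membrane genes (2.74), beside 24.6% of all genes. Col3a1, which accompanies type I collagen, was at 91.7, 108, 65.5 and 35.9 CPM before and 1460, 1614, 1451 and 1376 CPM after injury, and Col5a1, which starts collagen fibrils, at 11.8 ± 5.35 and 176 ± 7.43 CPM. All injured libraries were above all uninjured ones (log2 fold changes 4.29 ± 0.50 and 3.90 ± 0.25). Fn1, fibronectin, rose from 52.3 ± 24.5 to 619.7 ± 70.7 CPM (3.57 ± 0.33, edgeR adjusted p = 4.1e-10). The largest change of the matrix glycoproteins was that of periostin, Postn, from 2.33 ± 0.493 to 91.8 ± 11.2 CPM (5.30 ± 0.45, edgeR adjusted p = 7.3e-11). In basement membranes, the collagen chain Col4a1 rose from 27.5 ± 4.58 to 285 ± 55.0 CPM (3.37 ± 0.25) and the laminin chain Lama1 from 5.71 ± 0.508 to 13.7 ± 2.87 CPM (1.26 ± 0.18). All 9 genes of transforming growth factor beta signalling rose too (median 2.46), with Tgfb1, the ligand, from 18.9 ± 2.54 to 233 ± 21.6 CPM (3.63 ± 0.25) and its target Tgfbi from 41.7 ± 11.9 to 354 ± 41.0 CPM (3.08 ± 0.19).

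Of the 6 chondroitin sulfate proteoglycans of perineuronal and scar matrix 2 rose and 1 fell. These counts are near the shares of all genes, 24.6% and 19.5%, so nothing is read from them for the list. Vcan rose from 11.8, 17.4, 15.7 and 12.4 to 33.1, 41.3, 39.9 and 39.1 CPM in the 4 libraries of each group and Ncan from 18.4, 20.8, 26.5 and 21.99 to 51.1, 50.4, 70.8 and 53.5 CPM. Neither overlapped between the groups (log2 fold changes 1.42 ± 0.17 and 1.36 ± 0.17, edgeR adjusted p = 4.5e-08 and 9.2e-08). Acan, the main proteoglycan of perineuronal nets, fell from 25.01 ± 5.73 to 9.85 ± 1.11 CPM (-1.34 ± 0.34, edgeR adjusted p = 0.0013), and Bcan, Cspg5 and Ptprz1 did not pass, though Ptprz1 did without uninjured library 1 (0.17, -0.30 and -0.38).

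Of 13 metalloproteinases and inhibitors 12 rose and 1 fell (median 2.94). Mmp12, the macrophage elastase, was at 0.323, 0.0470, 0.0184 and 0.0182 CPM in uninjured and 39.8, 54.5, 39.4 and 25.8 CPM in injured cord, and the stromelysin Mmp3 at 0.234, 0.125, 0 and 0.0729 and 34.9, 43.6, 26.4 and 23.9 CPM. The injured libraries were above the uninjured ones for both, with a larger SE for Mmp3 (log2 fold changes 8.61 ± 0.54 and 8.19 ± 0.94). Timp1, an inhibitor of these enzymes, rose from 3.08 ± 0.628 to 116 ± 10.3 CPM (5.24 ± 0.30, edgeR adjusted p = 2.7e-14). The fallen gene was the gelatinase Mmp9, from 10.9 ± 1.22 to 2.97 ± 0.716 CPM (-1.88 ± 0.42, edgeR adjusted p = 3.5e-04), while the other gelatinase Mmp2 rose (2.94 ± 0.23).

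Myeloid transcripts were higher. All 10 genes shared by myeloid cells rose (median 3.92), and their summed level was 347.1 to 392.5 CPM in uninjured and 5657 to 6387 CPM in injured libraries. Aif1, the calcium-binding protein Iba1, was at 9.14, 8.05, 6.19 and 8.51 CPM before and 121, 105, 156 and 101 CPM after injury, with the groups far apart (log2 fold change 3.92 ± 0.25, edgeR adjusted p = 1.4e-13). Csf1r, the receptor that keeps microglia and macrophages alive, rose from 103 ± 9.06 to 603 ± 50.6 CPM (2.54 ± 0.23, edgeR adjusted p = 2.2e-10).

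Of 10 microglia genes 7 rose (median 2.10), but the 3 that did not are among those most used to tell microglia from other macrophages. P2ry12, a nucleotide receptor of surveying microglia, was at 9.39, 12.2, 9.89 and 8.34 CPM in uninjured and 12.6, 14.7, 12.4 and 12.7 CPM in injured cord. The injured libraries were slightly above the uninjured ones without passing the threshold (log2 fold change 0.40 ± 0.26, edgeR adjusted p = 0.2). Siglech was at 11.9 ± 0.869 and 13.9 ± 1.83 CPM and the microglial transcription factor Sall1 at 28.4 to 43.76 and 28.9 to 35.5 CPM, both with overlap. Tmem119, also used to mark microglia, rose from 36.7 ± 3.68 to 146 ± 14.2 CPM (1.997 ± 0.14, edgeR adjusted p = 9.7e-13), and Fcrls from 11.5 ± 2.91 to 416 ± 35.6 CPM (5.18 ± 0.20).

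Of 10 genes of monocytes and monocyte-derived macrophages 8 rose (median 1.46). Ms4a7, a membrane protein of infiltrating and border macrophages, was at 1.28, 1.28, 0.867 and 0.729 CPM before and 76.0, 108, 92.99 and 104 CPM after injury, without overlap (log2 fold change 6.51 ± 0.29, edgeR adjusted p = 1.6e-16). Lyz2, lysozyme M, rose from 74.9 ± 16.3 to 4551 ± 634 CPM (5.92 ± 0.40). The monocyte genes Ccr2 and Ly6c2 rose from 1.64 ± 0.819 to 4.08 ± 0.478 CPM and from 0.559 ± 0.450 to 1.71 ± 0.308 CPM, and Arg1, an arginase of wound macrophages, reached 3.64 ± 0.411 CPM from 0.807 ± 0.172 CPM (2.17 ± 0.33). The level of Ly6c2 is uncertain because its neighbour Ly6c1 is near-identical.

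The 13 genes of phagocytic and lipid-laden macrophages all rose and had the highest median of the 46 lists, 5.38. Gpnmb was at 7.04, 5.64, 7.16 and 5.98 CPM in uninjured libraries, at 3448, 1909 and 2442 CPM in injured libraries 2, 3 and 4, and at about 1.7e3 CPM in injured library 1. It was above every uninjured library in each injured one, at 366-fold the uninjured mean (log2 fold change 8.52 ± 0.45, edgeR adjusted p = 3.7e-15). Apoe, the apolipoprotein that carries cholesterol away from phagocytes and astrocytes, was at 1249, 1205, 1273 and 1210 CPM and then at 49264, 55919, 52473 and 52988 CPM (log2 fold change 5.42 ± 0.24, edgeR adjusted p = 1.7e-16). Spp1, osteopontin, rose from 151 ± 8.71 to 1343 ± 172 CPM (3.16 ± 0.20), and the lipid receptor Trem2 from 18.4 ± 2.72 to 763 ± 25.4 CPM (5.38 ± 0.23). Relative to transcript length, Apoe was the most abundant gene of the injured flow-through at 15724 CPM per kilobase, from place 112 in uninjured cord, and Ctsd, Lyz2 and C1qa stood at places 3, 6 and 9, from 171, 932 and 571.

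The promoter of Cst7, the second steepest increase, is shown with a match to TGANTCA, the motif of AP-1 factors such as Jun and Atf3, in capitals (RefSeq, GRCm38.p6, chr2:150570165-150570464, plus strand, from 250 bases before to 50 bases after the annotated start).
Cst7: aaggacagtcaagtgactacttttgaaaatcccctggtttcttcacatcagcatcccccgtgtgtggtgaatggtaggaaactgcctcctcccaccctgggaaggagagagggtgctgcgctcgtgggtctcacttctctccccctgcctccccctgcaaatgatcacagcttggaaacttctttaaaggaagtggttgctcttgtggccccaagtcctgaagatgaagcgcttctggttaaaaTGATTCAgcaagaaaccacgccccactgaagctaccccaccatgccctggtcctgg
The match begins 6 bases before the annotated start and ends at it. TGANTCA, searched on both strands, lay in this window for 5 of the 11 listed genes with a promoter in the table (Cst7, Gpnmb, Igf1, Itgax and Trem2). These 11 genes have 15 promoters there, of which 5 held it, beside 7.81% of all 32851 promoters of the table. A match is a description of letters and no evidence of binding.

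Genes of lysosomes and of lipid handling rose too, and the cells they came from were not tested. All 12 lysosomal genes rose (median 2.78). Ctsd, the protease cathepsin D, was at 527, 513, 547 and 507 CPM before and 13307, 15674, 14082 and 15348 CPM after injury, 27.9-fold higher with no overlap (log2 fold change 4.80 ± 0.24, edgeR adjusted p = 1.2e-15). Lamp1, a protein of the lysosomal membrane in all cells, rose from 664 ± 22.6 to 1550 ± 55.1 CPM (1.22 ± 0.11, edgeR adjusted p = 1.5e-10). All 11 genes of cholesterol efflux and lipid storage rose (median 3.70), with the efflux pump Abca1 from 6.01 ± 1.30 to 82.2 ± 16.7 CPM (3.77 ± 0.23) and the lipid droplet coat protein Plin2 from 13.3 ± 1.39 to 190.3 ± 27.7 CPM (3.84 ± 0.22).

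Cholesterol synthesis fell almost as a whole. Of 22 genes of the pathway and its regulators 20 fell, where 19.5% of all genes did, with a median log2 fold change of -1.46. Hmgcs1, which starts the pathway, was at 324, 347, 317.7 and 286 CPM in uninjured and 83.1, 68.5, 75.4 and 61.6 CPM in injured libraries. Each injured library held less than each uninjured one (log2 fold change -2.14 ± 0.19, edgeR adjusted p = 2.0e-10). Sqle, which makes the first oxygenated sterol precursor, fell from 87.6 ± 8.06 to 26.04 ± 1.096 CPM (-1.75 ± 0.18, edgeR adjusted p = 3.9e-09). The largest fall was that of Idi1 (-2.95 ± 0.54). Both exceptions, Mvk and Ebp, missed the threshold with log2 fold changes of -0.32 and 0.44 (edgeR adjusted p = 0.075 for Mvk), Ebp by less than the rounding of its adjusted p.

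The promoter of Hmgcs1 is printed because it was the only one of 16 listed genes with a promoter in the table that held TCACNCCAC, the sterol response motif of SREBP factors, in capitals (RefSeq, GRCm38.p6, chr13:119690101-119690400, plus strand).
Hmgcs1: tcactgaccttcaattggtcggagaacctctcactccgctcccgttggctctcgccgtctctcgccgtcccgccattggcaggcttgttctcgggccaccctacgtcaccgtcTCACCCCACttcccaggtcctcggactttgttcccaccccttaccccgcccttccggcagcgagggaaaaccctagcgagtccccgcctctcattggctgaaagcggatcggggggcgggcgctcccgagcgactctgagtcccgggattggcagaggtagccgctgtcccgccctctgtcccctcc
The motif, searched on both strands, is found in 1 of the 19 promoters of the listed genes and in 1.24% of the 32851 promoters of the table.

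Of 7 genes of iron and heme handling 4 rose and 1, the transferrin receptor Tfrc, fell (-1.34 ± 0.26). Hmox1, which breaks down heme, was at 11.2, 10.04, 9.23 and 9.90 CPM before and 102, 122, 107 and 116 CPM after injury, and the iron exporter Slc40a1 at 4.88, 6.22, 4.88 and 4.997 and 15.7, 16.8, 17.6 and 16.9 CPM. Neither overlapped (log2 fold changes 3.47 ± 0.22 and 1.67 ± 0.17, edgeR adjusted p = 1.1e-13 and 1.3e-09). The ferritin light chain Ftl1 rose (3.79 ± 0.42) and the heavy chain Fth1 did not pass (0.19 ± 0.27, edgeR adjusted p = 0.58), and both have pseudogenes that can share their reads.

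Complement and antibody receptors rose. Of 16 complement genes 14 rose (median 3.18), and the 2 others, Cd55 and Cd59a, encode membrane inhibitors (-0.16 and 0.13, edgeR adjusted p = 0.73 and 0.68). C1qa, a chain of the recognition molecule of the classical pathway, was at 139.6, 124, 109.8 and 109 CPM in uninjured and 3060, 3252, 2885 and 3161 CPM in injured cord. C3, the protein on which the pathways converge, was at 38.7, 41.8, 55.2 and 40.8 and 212, 302.9, 374.7 and 270.3 CPM. Both were higher in each injured library than in any uninjured one (log2 fold changes 4.68 ± 0.23 and 2.72 ± 0.33, edgeR adjusted p = 6.6e-16 and 5.1e-08). The 4 Fc receptors rose by 3.73 to 4.88, with Fcgr1 from 6.32 ± 0.576 to 90.3 ± 15.02 CPM and Fcgr4 from 0.698 ± 0.156 to 20.7 ± 3.59 CPM.

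Genes of antigen presentation by class I rose as a whole and those of class II in part. All 9 class I genes rose (median 2.84). H2-K1, a class I heavy chain, was at 76.7, 71.8, 46.3 and 46.01 CPM before and 548, 475, 458 and 523.5 CPM after injury, and the shared light chain B2m rose from 144 ± 30.3 to 1110 ± 68.4 CPM. The injured libraries were all above the uninjured ones (log2 fold changes 3.06 ± 0.18 and 2.95 ± 0.17), and H2-K1 may share reads with H2-D1. Of 8 class II genes 6 rose (median 1.03), and 3 to 7 under other settings, where 24.6% of all genes rose. H2-Ab1, a class II beta chain, was at 40.8, 44.9, 15.2 and 16.8 CPM before and 60.8, 42.1, 48.8 and 56.0 CPM after injury. Its groups overlapped and its call was near the threshold (log2 fold change 0.82 ± 0.26, edgeR adjusted p = 0.0087). The alpha chain H2-Aa went from 26.6 ± 14.7 to 53.9 ± 5.06 CPM (1.01 ± 0.24, edgeR adjusted p = 6.4e-04), and the class II transactivator Ciita was at 0.900 ± 0.232 and 0.898 ± 0.356 CPM.

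All 12 interferon-stimulated genes rose (median 2.52). Ifit3, which binds viral RNA complexes, was at 10.7, 15.9, 7.97 and 7.58 CPM in uninjured and 51.6, 54.5, 55.0 and 30.4 CPM in injured mice. Injured library 4 was the lowest of its group and still above all uninjured ones (log2 fold change 2.18 ± 0.27, edgeR adjusted p = 7.5e-08), and its level is uncertain because Ifit3b is near-identical. Bst2 and Isg15 rose from 10.03 ± 2.84 to 88.3 ± 5.34 CPM and from 4.16 ± 1.27 to 27.7 ± 5.85 CPM. Of 7 listed genes with a promoter in the RefSeq table, 5 (Bst2, Ifit1, Ifit3, Isg15 and Rsad2) held, on either strand, GAAA followed by 2 bases of any kind and GAAA again, the element to which interferon-activated factors bind, as did 3.44% of the 32851 promoters. The promoters of 3 of them follow, because the repeats of the element differ between them, each 5′ to 3′ in the direction of its gene, with the element in capitals (GRCm38.p6; Bst2 chr8:71537423-71537722, minus strand, Isg15 chr4:156200769-156201068, minus strand, Ifit3 chr19:34583279-34583578, plus strand).
Bst2: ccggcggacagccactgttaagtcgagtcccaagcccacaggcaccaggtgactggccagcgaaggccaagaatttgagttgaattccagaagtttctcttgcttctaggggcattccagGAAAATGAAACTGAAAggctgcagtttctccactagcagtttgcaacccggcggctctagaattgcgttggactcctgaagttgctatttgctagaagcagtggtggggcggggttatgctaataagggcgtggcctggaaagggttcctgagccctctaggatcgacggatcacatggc
Isg15: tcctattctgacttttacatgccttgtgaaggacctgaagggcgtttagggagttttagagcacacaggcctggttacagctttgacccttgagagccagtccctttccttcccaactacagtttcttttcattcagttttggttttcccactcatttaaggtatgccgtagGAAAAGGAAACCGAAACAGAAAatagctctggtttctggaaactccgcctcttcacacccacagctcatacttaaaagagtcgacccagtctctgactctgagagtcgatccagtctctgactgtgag
Ifit3: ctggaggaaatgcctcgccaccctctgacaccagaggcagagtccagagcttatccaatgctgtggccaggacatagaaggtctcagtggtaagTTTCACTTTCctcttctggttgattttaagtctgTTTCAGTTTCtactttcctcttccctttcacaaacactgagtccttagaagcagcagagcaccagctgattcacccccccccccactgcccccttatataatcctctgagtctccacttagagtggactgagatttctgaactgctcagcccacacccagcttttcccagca
Bst2 held 2 overlapping matches that begin 130 and 124 bases before the start, Isg15 3 overlapping ones at 78, 72 and 66 bases, and Ifit3 2 separate ones on the opposite strand at 156 and 122 bases.

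Of 16 chemokine genes 14 rose (median 3.17). Ccl3, a ligand that macrophages release, was at 0.629, 0.415, 0.415 and 0.456 CPM in uninjured and 39.8, 38.1, 32.8 and 27.7 CPM in injured libraries. Ccl2, which draws monocytes through Ccr2, was at 0.898, 0.659, 0.295 and 0.656 and 7.35, 7.76, 4.95 and 4.54 CPM. All injured libraries were higher (log2 fold changes 6.17 ± 0.34 and 3.29 ± 0.30, edgeR adjusted p = 1.2e-14 and 2.2e-10). Cx3cl1, the chemokine that neurons present to microglia, fell from 256 ± 22.7 to 111 ± 10.2 CPM (-1.20 ± 0.10, edgeR adjusted p = 1.1e-10), while its receptor Cx3cr1 rose (2.79 ± 0.21). Cxcl13 stayed under 1 CPM in the mean and did not pass (edgeR adjusted p = 0.035).

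Most T cell genes rose, and a smaller part of the genes of other lymphocytes and of neutrophils passed the threshold as risen. Of 8 T cell genes 7 rose (median 3.35), from a summed level of 1.55 to 4.70 CPM to 20.6 to 25.9 CPM. Cd3e, part of the T cell receptor complex, was at 0.575, 0.329, 0.0922 and 0.0912 CPM before and 3.70, 3.25, 3.54 and 2.65 CPM after injury, with no overlap (log2 fold change 3.58 ± 0.63, edgeR adjusted p = 2.1e-05). Cd8a was at 0.288 ± 0.259 and 1.23 ± 0.588 CPM and did not pass (edgeR adjusted p = 0.053). Cd4, which rodent macrophages can also carry, rose from 0.298 ± 0.0355 to 6.08 ± 2.14 CPM. Of 6 genes of natural killer and cytotoxic cells 2 rose (median 2.48), where 24.6% of all genes did. They were Klrb1c and Klrk1, both under 1 CPM. Ncr1 (0.0226 ± 0.0270 and 0.0690 ± 0.0431 CPM), Gzmb (0.0536 ± 0.0374 and 0.331 ± 0.111 CPM), Gzma and Prf1 did not pass, with log2 fold changes of 1.56, 2.59, 2.38 and 1.82. The summed level of the list was 0.1185 to 0.3233 CPM in uninjured and 2.115 to 2.51 CPM in injured libraries.

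Of 9 B cell and plasma cell genes, 8 could be tested. Igkc rose (5.07 to 17.7 CPM, edgeR adjusted p = 0.0075), a call that was lost under RLE scaling, without a filter, and without uninjured library 2, 3 or 4 or injured library 1 or 3, and Ighm fell (117 to 42.1 CPM, -1.48 ± 0.25, edgeR adjusted p = 1.1e-05), with the B cell receptor subunit Cd79a at 0.569 ± 0.259 and 0.841 ± 0.327 CPM and the antibody joining chain Jchain at 1.24 ± 0.969 and 2.88 ± 0.8285 CPM, neither past the threshold. Of 6 dendritic cell genes 4 rose, where 24.6% of all genes did. Flt3 fell from 21.5 ± 1.16 to 3.71 ± 0.329 CPM (-2.54 ± 0.38, edgeR adjusted p = 1.9e-06), while Cd209a was at 0.0681 ± 0.0725 and 0.335 ± 0.114 CPM and did not pass. Neutrophil genes showed 1 increase among 10, that of the growth factor receptor Csf3r, which microglia and macrophages also make (6.90 to 90.1 CPM, 3.71 ± 0.24). The neutrophil proteins S100a8 and S100a9 were at 8.26 ± 2.66 and 12.01 ± 3.51 CPM at 14 days, beside 7.81 ± 6.41 and 12.7 ± 9.38 CPM in uninjured cord, with overlap. The uninjured values include library 1, where S100a8 was at 17.06 CPM against 2.379 to 6.474 CPM in the others. Under every alternative, leaving out that library included, 1 neutrophil gene rose and 0 to 1 fell. No erythrocyte gene passed, with the globin genes Hba-a1 at 4.21 ± 3.51 and 2.38 ± 1.55 CPM and Hbb-bs at 0.480 ± 0.287 and 0.521 ± 0.720 CPM, both of which have near-identical copies. None passed under any alternative, leaving out uninjured library 1 included.

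Genes of cell division were higher and those of the respiratory chain lower. All 12 cell cycle genes rose (median 2.89). Mki67, the proliferation antigen Ki67, was at 1.43, 1.97, 1.06 and 0.848 CPM in uninjured and 15.8, 15.7, 17.8 and 13.3 CPM in injured mice, with no overlap (log2 fold change 3.56 ± 0.21, edgeR adjusted p = 5.3e-14), and Top2a, which untangles replicated DNA, rose from 1.16 ± 0.688 to 12.7 ± 1.99 CPM. Of 11 respiratory chain genes 9 fell (median -0.74), among them the complex I subunit Ndufs1, from 117 ± 8.03 to 54.7 ± 4.80 CPM (-1.10 ± 0.13, edgeR adjusted p = 5.0e-08), while Cox4i1 was at 886 ± 139 and 730.2 ± 43.3 CPM and did not pass. Of 12 glycolytic genes 7 fell and 3 rose, beside 19.5% and 24.6% of all genes. The risen ones were Hk2, the inducible hexokinase (3.16 to 24.1 CPM, 2.93 ± 0.17), Ldha, which makes lactate (85.04 to 249.2 CPM, 1.55 ± 0.13), and the lactate exporter Slc16a3 (2.87 ± 0.14). The partner forms that neurons use more, Hk1 and Ldhb, were among the fallen (-0.82 ± 0.10 and -1.39 ± 0.25).

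Against 5 days, genes of cell division were lower at 14 days. From 5 to 14 days 2105 of 19207 genes passed the threshold (11% of those tested), 813 higher (4.23%) and 1292 lower (6.73%), and 5475 had an unadjusted p under 0.05. All 12 cell cycle genes fell (median -2.90), where 6.73% of all genes did: Mki67 was at 107 ± 14.3 CPM at 5 days against 15.7 ± 1.83 CPM at 14 days (log2 fold change -2.77 ± 0.20, edgeR adjusted p = 6.9e-11). Of 7 genes of iron and heme handling 2 fell. One of them, Hmox1, which breaks down heme, fell from 2053 ± 482 to 112 ± 8.87 CPM (-4.20 ± 0.22, edgeR adjusted p = 1.9e-13) and Arg1 from 277 ± 87.2 to 3.64 ± 0.411 CPM (-6.25 ± 0.36). The scavenger receptor Marco fell by 5.77, the stromelysin Mmp10 by 5.13 and the chromatin protein Hmga2 by 4.49 on the log2 scale, which with Arg1 and Hmox1 made the 5 steepest falls. Spp1, still raised over uninjured cord, fell from 9697 ± 659 to 1343 ± 172 CPM (-2.85 ± 0.19, edgeR adjusted p = 2.5e-11). The smooth muscle and myofibroblast actin Acta2 fell from 502 ± 65.7 to 42.9 ± 6.96 CPM (-3.55 ± 0.31).

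Other genes were higher at 14 than at 5 days. The 5 steepest increases from 5 to 14 days were Cyp2f2 (4.81 ± 0.52), Myoc (4.36 ± 0.49), Cpz (4.01 ± 0.41), the prostaglandin D synthase Ptgds, which reached 6891 ± 2140 CPM (3.83 ± 0.28, edgeR adjusted p = 7.5e-11), and the lactate receptor Hcar1 (3.65 ± 0.35). Apoe rose from 13597 ± 874 to 52661 ± 2726 CPM (1.95 ± 0.21, edgeR adjusted p = 6.0e-08) and C3 from 53.9 ± 13.2 to 289.9 ± 68.0 CPM (2.43 ± 0.32). Of 8 Schwann cell genes 6 rose between these times (median 1.34), where 4.23% of all genes did, but 2 with the 2 groups alone or without 14-day library 4, and 3 without 5-day library 3. Of 13 myelin genes 3 rose, among them Mal (0.72 ± 0.17) and Opalin (1.096 ± 0.15), but 1 without 5-day library 2 or 3 or 14-day library 4, and 6 with the 2 groups alone or without the libraries at 2 days. None of the 10 neuron markers passed, with a median of 0.35 and Snap25 at 289 ± 74.6 CPM at 5 days. The same 14-day libraries enter this comparison and the one with uninjured cord, so the comparisons are not independent.

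From 14 to 28 days 2228 genes passed (11.6%), 954 higher (4.97%) and 1274 lower (6.63%), with 6438 at an unadjusted p under 0.05. Many matrix genes were lower: 8 of 10 collagens, 9 of 12 basement membrane genes and 5 of 15 matrix glycoproteins fell, where 6.63% of all genes did. Col1a1, of the fibroblast list, went from 3372 ± 158 to 636 ± 46.8 CPM (log2 fold change -2.41 ± 0.37, edgeR adjusted p = 7.7e-05). Of the 8 fibroblast genes 2 fell (median -0.218). Dcn of that list was at 528.2 to 620.8 CPM at 14 days and 444.9 to 609.4 CPM at 28 days. Lum was at 52.87 to 79.36 and 48.98 to 71.78 CPM. The count of matrix glycoproteins was 15 with the 2 groups alone. The shift by transcript length against uninjured cord was wider at 28 than at 14 days, with median log2 deviations of 0.56 to 0.64 in the shortest sixth and -0.32 to -0.22 in the longest. By the share of G and C bases, the highest sixth of genes was at 0.019 to 0.25 at 14 days and -0.13 to -0.06 at 28 days. The lowest sixth was at -0.15 to -0.041 and then at 0.094 to 0.22. The part of transcript length and base composition in the fall of the matrix genes was not tested. Of 13 myelin genes 9 fell (median -0.53), Mbp among them to 11727 ± 409 CPM (-0.65 ± 0.17, edgeR adjusted p = 0.0059), and Gpr17 fell to 49.5 ± 2.88 CPM (-1.54 ± 0.32). Class II genes rose, 5 of 8 (median 1.23) where 4.97% of all genes did, led by H2-Ab1 to 189.5 ± 12.04 CPM (1.87 ± 0.26, edgeR adjusted p = 2.9e-05). The other 4 steepest increases were Gm4841, the mast cell tryptase Tpsb2, Jchain and Chodl, by 3.12, 2.88, 2.24 and 1.89 on the log2 scale.

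The 5 steepest falls to 28 days, Pcdhgc3, Col6a1, Lgals3bp, Gna12 and Alpl (log2 fold changes -4.46 to -3.52), were genes that were low together in whole groups of libraries. Gna12, a G protein subunit, was at 93.99 to 158.8 CPM at 14 days and 5.36 to 11.5 CPM at 28 days, but also at 0.847 to 3.99 CPM at 2 days, 34.3 to 73.6 CPM at 5 days and 32.9 to 146.5 CPM at 42 days, and at 72.7 to 118.8 CPM in uninjured cord. Replicate 2 at 70 days (13.2 CPM) and replicate 1 of the injured mGfap mice (14.0 CPM) stood below the other libraries of their groups in the same way. Col6a1 is also 1 of the collagens counted above. Gpr17 was low in these libraries too, at 7.149 to 34.42 CPM at 2 days, though at 163.3 to 212.9 CPM at 5 days. In replicate 2 at 70 days it was at 25.06 CPM, against 52.96 to 62.3 CPM in the others. In replicate 1 of the injured mGfap mice Gpr17 was at 10.99 CPM, against 15.15 to 28.34 CPM. What sets these libraries apart was not tested. Its part in the fall of Gpr17 to 28 days and in the difference of Gpr17 between the lines, given below, was not tested either.

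**Figure D3:**
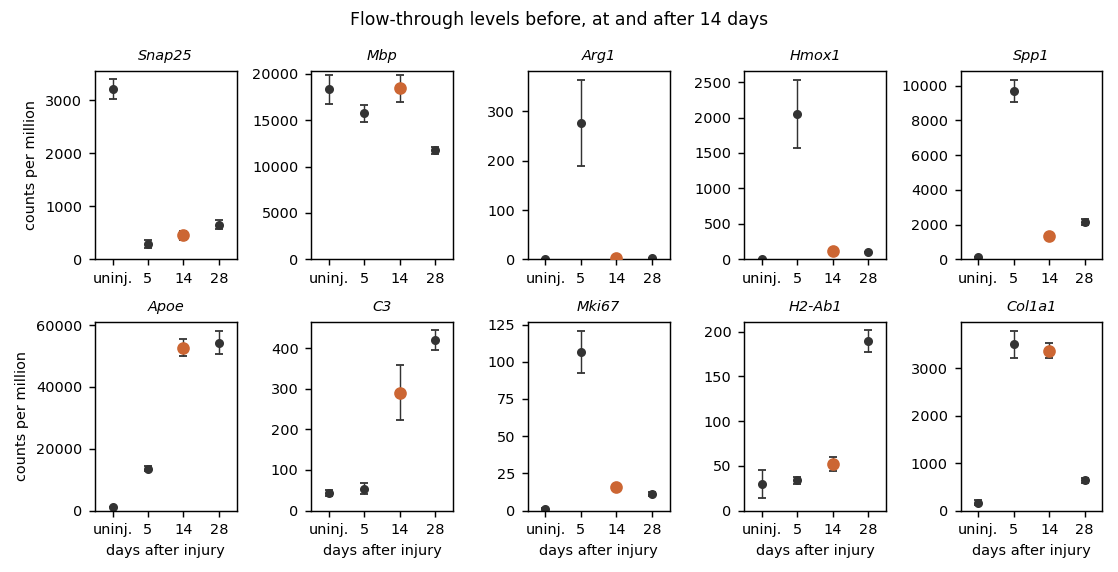
Flow-through level of 10 genes in CPM (mean, with bars for the SD, n = 4 libraries at each point) in uninjured mice and 5, 14 (orange) and 28 days after injury, each panel with an axis of its own that starts at 0. Hmox1, Arg1, Spp1 and Mki67 are highest at 5 days, Apoe and C3 are higher at 14 than at 5 days, and H2-Ab1 is highest at 28 days.

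Males at 14 days were compared with females at 14 days, without uninjured males of this line. Of 17986 genes 1184 differed (6.58%), 998 higher (5.55%) and 186 lower in males (1.03%), and 6043 had an unadjusted p under 0.05. The largest differences were the Y-linked genes Eif2s3y, at 30.1 ± 3.59 CPM in males and at least 1133-fold higher than a floor of 3 counts in each female library, Kdm5d (at least 341.7-fold) and Ddx3y (at least 653.3-fold), and Xist, which females use to silence an X chromosome (log2 difference -10.01 ± 0.42). Beyond these, the chemokine Cxcl9 was higher in males, at 8.35 ± 2.16 CPM (1.86 ± 0.21, edgeR adjusted p = 3.4e-04), as was Megf9 (1.67 ± 0.28). Cd4 (-1.02 ± 0.22), 1700030C10Rik (-1.12 ± 0.21), Mrap (-1.06 ± 0.18) and Lrrc17 (-0.96 ± 0.17) were lower. Of 13 genes of phagocytic macrophages 1 differed, Clec7a, of 10 neuron markers 0 and of 22 cholesterol synthesis genes 2. Of 16 complement genes 4 were lower in males, C2, Cfb, Serping1 and C1ra, by 0.42 to 0.70 on the log2 scale. With 1 library left out at a time 0 to 2 of them passed, and 0 without female library 3 or male library 3. The counts of phagocytic and of cholesterol synthesis genes were then 0 to 3 each. The number of genes depended on a single library and was 355 without male library 3. In male library 4 the muscle actin Acta1 stood at 101 CPM against 5.92 to 12.0 CPM in the other males.

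The mGfap line was compared at the same time after the same injury. The groups contrasted there share no library with the main comparison. They were, however, fitted together with the libraries of the main comparison. The gene filter, the scaling and the estimate of spread behind the mGfap calls are therefore not independent of those libraries. There 12436 of 18838 genes passed (66%), 6327 higher (33.6%) and 6109 lower (32.4%). Of the lists described above, 13 of 13 genes of phagocytic macrophages, 12 of 12 lysosomal genes and 10 of 10 collagens rose, and 7 of 10 neuron markers, 10 of 12 synaptic genes and 20 of 22 cholesterol synthesis genes fell. Apoc4, Gpnmb, Cd5l, Htr2b and Mmp12 were the 5 steepest increases, with Gpnmb from 1.70 ± 0.205 to 3706 ± 1892 CPM (SD, n = 5 in each group, log2 fold change 11.09 ± 0.43, edgeR adjusted p = 2.6e-12), Apoc4 at least 1891-fold and Htr2b at least 586.8-fold above a floor of 3 counts per library. The steepest falls were Idi1 (-4.71 ± 0.37), B230209E15Rik (-4.63), Smim17 (-4.62), AF357359 (-4.60) and the neuronal non-coding RNA Bc1 (-4.41), whose many genomic copies make its level uncertain.

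Replicates of the injured mGfap mice varied more, with correlations of 0.891 to 0.979 against 0.987 to 0.995 in the uninjured ones. Library 1 held muscle, neutrophil and globin transcripts, with Acta1 at 1047 CPM against 18.4 to 24.5 CPM in the other 4 and S100a8 at 227.3 CPM against 11.7 to 51.0 CPM, and library 4 had the lowest Snap25, 112.2 CPM against 322.7 to 1052 CPM. Both were left out in an alternative chosen after the values were seen, and 11890 genes then passed. All 10 neutrophil genes rose with all libraries and 3 without these 2, or 1 with labelled sex as a covariate. The counts given above for phagocytic, lysosomal, collagen, synaptic and cholesterol genes did not change without them, and 8 of 10 neuron markers fell in place of 7.

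The change itself differed between the lines for 863 of 18838 genes (4.58%), 188 with a higher (0.998%) and 675 with a lower change in the mGfap line (3.58%), and 5656 had an unadjusted p under 0.05. Oligodendrocyte lineage genes were among the lower ones. For 9 of 13 myelin genes, 3 of 6 progenitor genes, 4 of 6 chondroitin sulfate proteoglycans and 6 of 12 astrocyte genes the change was lower in the mGfap line, where it was for 3.58% of all genes. The astrocyte count was 3 without uninjured Aldh1l1 library 4. Gpr17, which rose in the Aldh1l1 line, was at 56.9 ± 11.1 CPM in uninjured and 20.2 ± 7.80 CPM in injured mGfap mice, with 10.99 to 28.3 CPM in the 5 injured libraries against 120.8 to 167.0 CPM in the 4 injured libraries of the Aldh1l1 line. The 2 ranges are far apart, and the difference of the changes was -3.00 ± 0.33 (edgeR adjusted p = 5.2e-05), or -2.69 without the 2 libraries. Mbp was at 17874 ± 1326 CPM in uninjured and 11719 ± 2233 CPM in injured mGfap mice, and the difference of its changes did not pass (difference -0.61 ± 0.22, edgeR adjusted p = 0.063). Vcan and Ncan, which had risen, were at 19.02 ± 2.39 and 20.2 ± 3.89 CPM after 23.8 ± 2.11 and 31.9 ± 1.83 CPM (differences -1.74 ± 0.17 and -2.02 ± 0.20). The lipid droplet protein Plin4 (-3.46 ± 0.40), Fam83d (-2.79 ± 0.39), the transcription factor Zbtb16 (-2.78 ± 0.33) and Bc1 (-2.72 ± 0.56) completed the 5 lowest with Gpr17.

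On the higher side, 4 of 8 class II genes had a larger increase in the mGfap line, where 0.998% of all genes did. H2-Ab1 went there from 15.8 ± 5.77 to 213 ± 67.2 CPM (difference 2.94 ± 0.48, edgeR adjusted p = 9.1e-04), and H2-Aa by 2.71 ± 0.47 more. The 5 highest differences were Hba-a2, the red cell transporter Slc4a1 and the erythroid factor Klf1 (5.54, 4.41 and 4.07 on the log2 scale, and 2.94, 2.45 and 2.45 without the 2 libraries), the uncoupling protein of brown fat Ucp1 (4.75) and the imprinted RNA H19 (3.55). Gpnmb (2.58 ± 0.44) and the tight junction gene Cldn5 (1.36 ± 0.17) were also higher, and Mfsd2a lower (-1.26 ± 0.20). Line, Cre and the labelled sex of some controls differed together and cannot be told apart here. With labelled sex as a covariate the difference passed for 179 genes, among them still 5 myelin, 3 progenitor, 3 proteoglycan, 3 astrocyte and 2 class II genes, and Gpr17 at -3.09, while Hba-a2, Slc4a1, Klf1, Ucp1, Bc1, Gpnmb and H2-Aa lost their call.

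**Figure D4:**
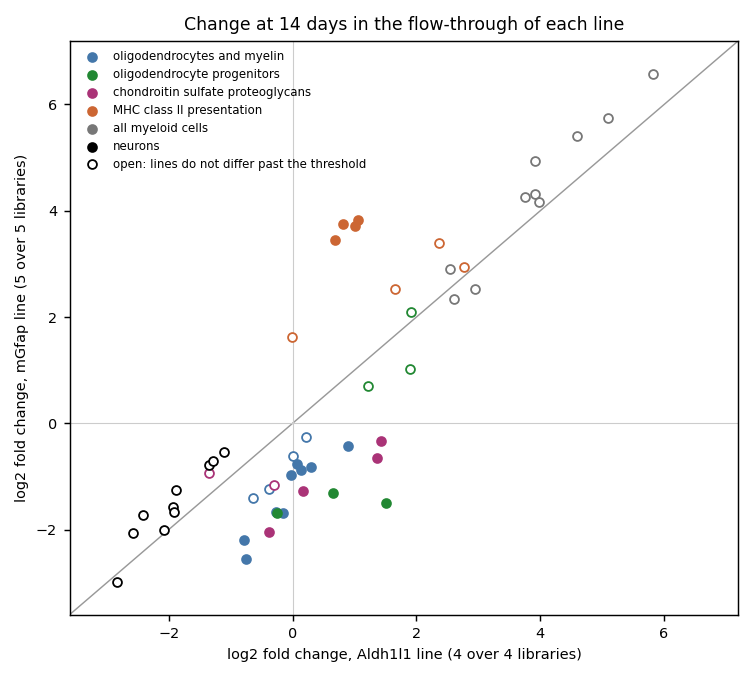
Each point is 1 gene of 6 lists (colours), placed at its log2 fold change from uninjured to 14 days in the Aldh1l1 line (x axis, 4 libraries against 4) and in the mGfap line (y axis, 5 against 5), filled where the changes differ past the threshold, and the grey diagonal marks equal change. Neurons and myeloid genes lie near the diagonal with no filled point, most myelin, progenitor and proteoglycan genes below it, and 4 class II genes above it.

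The astrocyte libraries of the same 8 mice changed otherwise than the flow-through for 6391 of 18591 genes (34.4%), with 3858 higher (20.8%) and 2533 lower (13.6%) in their change. Under RLE scaling the split was 3182 to 3139, so no side is read from it. All 10 genes shared by myeloid cells had a higher change in the RiboTag libraries (median difference 2.13, beside 0.128 for all genes), with Lyz2 going from 46.7 ± 19.1 to 11081 ± 1934 CPM there (difference 2.05 ± 0.33, edgeR adjusted p = 8.2e-05). Gpnmb was at 16.4 ± 2.07 and 5995 ± 1932 CPM there, and the difference of the changes did not pass (0.08 ± 0.32, edgeR adjusted p = 0.86). Apoe was at 18769 ± 1816 CPM before and 71331 ± 5817 CPM after injury in the RiboTag libraries, a lower change than in the flow-through (difference -3.40 ± 0.13, edgeR adjusted p = 7.3e-12).

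Of 12 lysosomal genes 9, of 12 basement membrane genes 8 and of 22 cholesterol synthesis genes 16 had a lower change in the RiboTag libraries, where 13.6% of all genes did. Of 8 class II genes 7 had a higher change there (median difference 3.66), where 20.8% of all genes did. The 5 highest differences were Ms4a14, Gm14461, Nppc, Ccn5 and BC021767 (5.29 to 6.64) and the 5 lowest Aqp6, Gdf10, Heyl, Apoc1 and Slc13a5 (-5.47 to -4.43). Gdf10, a growth factor of the bone morphogenetic protein family, rose from 5.77 ± 0.341 to 64.2 ± 14.3 CPM in the flow-through and was at 43.7 ± 1.69 and 13.1 ± 0.416 CPM in the RiboTag libraries. The natriuretic peptide Nppc fell from 14.9 ± 1.18 to 4.27 ± 1.21 CPM in the flow-through and was at 0.827 ± 0.390 and 11.9 ± 4.26 CPM in the RiboTag libraries. Each RiboTag library shares its mouse with a flow-through library, and with the mouse as a block 7377 genes passed.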

How the data were processed

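The deposited files hold counts of reads per gene, whole numbers that were not normalised. Per the labels and the methods of the study, RNA from the flow-through was poly-A selected and sequenced as paired ends, and the authors made the counts with featureCounts from HISAT2 alignments to mm10, after trimming by Trimmomatic, with default parameters for alignment and counting. Files were joined by gene identifier, since 9 of them list genes in another order. Of 27179 genes, 25275 received a symbol from RefSeq.

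Differences were tested with edgeR 4.0.16 in R 4.3.3 (TMM normalisation, filterByExpr, glmQLFit with legacy and robust set, glmQLFTest, two-sided), with limma 3.58.1 beneath it, at a Benjamini-Hochberg false discovery rate under 0.01 over all genes of a fit. SE is the log2 fold change over the square root of F. The fit of the time course held 29 libraries of 7 flow-through groups, so that the spread is shared among them. Of the genes tested, 797 had very low mean levels in both groups of the main comparison. Filtered on these 2 groups alone, 18093 genes were kept. CPM were scaled within each fit. The call rate was tested on simulated data. At the sizes of the main comparison, 6 of 50 genes changed by 1.5-fold, 48 of 50 by 2-fold and 50 of 50 by 4-fold were recovered. The simulated counts had the same spread for every gene and uninjured means in every group, and only well expressed genes were changed. Recovery of genes with low levels or a wider spread was not tested.

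The library groups, the 46 gene lists (440 entries, 439 matched) and the genes named were chosen with earlier results of these data known. Named were the first 2 genes of each list, the 10 steepest increases and 10 steepest decreases with at least 5 CPM in the higher group and no overlap, the 5 of each in the other comparisons, and further list members as examples. Of these, 4 genes are not reported here, though they stay in the fits and the list counts. A floor of 3 counts per library bounds a fold against libraries at 0. Flow-through and RiboTag libraries with the same number come from the same animal, and their deviations from the group means correlated at 0.421 to 0.596 in uninjured and 0.206 to 0.457 in injured mice. No source says more of how far animals of a group were independent, so p-values measure the spread between these libraries. Depth was 99521160 to 136008399 counts in the 8 libraries, and 40710428 to 75175387 at 2 days, the shallowest group of the fit.

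Alternatives were RLE scaling, other filters, DESeq2 1.42.0, the newer edgeR fit, a threshold of 0.05, the groups of a contrast alone, a replicate block, a sex covariate and leaving out libraries. Promoters are from RefSeq on GRCm38.p6, for the list genes that its table holds. Genes with near-identical copies (H2-K1, globins, ferritins, Ifit3, Ly6c2, Gapdh, Eno1, protocadherins and Bc1) are uncertain, since featureCounts by default leaves out reads that map to several places or overlap several genes.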

Additional observations from a re-analysis of the deposited data

Results flagged for a closer look

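Of 212 groups of 4 libraries examined, the uninjured and injured libraries of each named gene, 12 had a library apart from the other 3 by Dixon's criterion, and chance gives about 1 in 20. In uninjured cord these were Slc18a3 with a low library 1 (78.49 CPM), Vamp2 with a high library 1 (753.5 CPM), Mfsd2a with a low library 2 (17.73 CPM), Slc40a1 with a high library 2 (6.217 CPM) and Mmp12 with a high library 1 (0.3233 CPM). At 14 days they were Vamp2 with a high library 1 (420.3 CPM), Pdgfrb with a low library 1 (127.5 CPM), P2ry12 with a high library 2 (14.69 CPM), Hbb-bs with a high library 3 (1.599 CPM), Ifit3 with a low library 4 (30.42 CPM), Ncan with a high library 3 (70.78 CPM) and Scn1a with a high library 1 (13.46 CPM).

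The change from uninjured to 14 days differed between the mGfap and the Aldh1l1 line for 863 genes by the interaction term in edgeR. On the log2 scale, mGfap minus Aldh1l1, it was higher for Hba-a2 (5.537), Ucp1 (4.751), Slc4a1 (4.407), Klf1 (4.07), H19 (3.546), H2-Ab1 (2.942), H2-Aa (2.708), Gpnmb (2.58) and Cldn5 (1.357). It was lower for Plin4 (-3.464), Gpr17 (-3.004), Fam83d (-2.793), Zbtb16 (-2.78), Bc1 (-2.718), Ncan (-2.021), Vcan (-1.739) and Mfsd2a (-1.261).

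Between RiboTag libraries and flow-through the change differed for 6391 genes. RiboTag minus flow-through, it was higher for Ms4a14 (6.636), Gm14461 (5.979), Nppc (5.726), Ccn5 (5.717) and BC021767 (5.293), and lower for Aqp6 (-5.47), Gdf10 (-5.132), Heyl (-4.842), Apoc1 (-4.805) and Slc13a5 (-4.432).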

How the results depend on the processing

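The count of 8469 genes between 14 days and uninjured cord stayed within 1.5 times under each alternative run, from 7717 to 8034 without 1 library each to 10948 with the 2 groups alone. The share of increases was 55.9%, and 49.2% under RLE scaling and 48.8% with DESeq2. Of 1800 values of the 106 named genes under these alternatives none reversed. Tac1, H2-Aa and H2-Ab1 lost their call in 21 of these values, and P2ry12, Cd8a and Gzmb gained one in 6. With the 2 groups alone the adjusted p in edgeR was 0.064 for H2-Ab1 and 0.027 for H2-Aa. For 14 against 5 days, 2105 genes became 3415 at a threshold of 0.05, 4602 with the 2 groups alone and 3765 without the libraries at 2 days (an alternative chosen after seeing the data). For 28 against 14 days, 2228 became 4232, 6626 and 4778 in the same order, and 1229 to 1878 without 1 library each. Between the sexes, 1184 became 3305 at 0.05, 2582 with DESeq2 (65.1% higher in males, against 84.3%) and 355 to about 1.6e3 without 1 library each. Between the lines, 863 became 2740 at 0.05, 2008 with DESeq2 (43.3% higher, against 21.8%), 179 with labelled sex as a covariate, 1612 without mGfap libraries 1 and 4, and 401 (without uninjured Aldh1l1 library 4) to 1980 (without mGfap 14-day library 2) without 1 library each. With labelled sex as a covariate Hba-a2, Slc4a1, Klf1, Ucp1, Bc1, Gpnmb and H2-Aa lost their call. Beyond the list counts given above, myelin genes that fell by 14 days were 5 of 13 without the libraries at 2 days, and genes of natural killer and cytotoxic cells that rose were 4 of 6 with the 2 groups alone. The cause of these differences was not tested.

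With the replicate number as a block, 8449 genes passed for 14 days against uninjured, 2051 against 5 days, 2038 for 28 days, 1304 between the sexes, 12339 in the mGfap line and 901 between the lines. Uninjured and injured libraries share only a number, with correlations of -0.191 to 0.154, and 2 of 4 correlated best with their own number. With the animal as a block, RiboTag against flow-through gave 7377.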
